A study of Mus musculus with 4 samples.

Results

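The TNF superfamily, its signal transducers and NF-κB form one chain from a ligand at the cell surface to transcription in the nucleus, and 66 of the 53379 genes measured in large intestinal (LI) Treg cells were described here. They were taken by gene symbol, as every gene whose symbol starts with *Tnfrsf* or *Tnfsf* and every *Traf* followed by 1 digit. A further 26 ligands, receptors, kinases, subunits and inhibitors were named one by one. The list was drawn up with earlier results of these data known. Of the 66 members, 49 had a mean FPKM (fragments mapped to a gene, scaled to transcript length and to the total of mapped fragments) of at least 5 in control or KO cells, and the same 49 passed the filter for testing. The cells were CD3+CD4+YFP+ cells sorted from the large intestine of adult C57BL/6 mice at steady state. Control mice carried Foxp3Cre-YFP, in which Cre and YFP are driven from *Foxp3*, and 1 floxed and 1 intact copy of *Setd2* (Setd2 f/+). KO mice carried the same Foxp3Cre-YFP and 2 floxed copies (Setd2 f/f). Setd2 is the methyltransferase that trimethylates histone H3 at lysine 36. Each group had 2 libraries, called control 1, control 2, KO 1 and KO 2, and each library was a pool of 2 to 3 littermate mice, so that the spread within a group is that between pools. Pairs of values are given in the order of library 1 and library 2. The mice of all 4 pools carried Cre and at least 1 floxed allele, and no pool came from mice with 2 intact copies.

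TNF superfamily ligands are mostly trimeric membrane proteins, and their receptors cluster on binding and recruit TRAF adaptors or death domain proteins. TRAF complexes with cIAP ubiquitin ligases then act on the IKK kinases, which release RelA and c-Rel from IκB proteins (the canonical pathway), or on NIK, which leads to processing of p100 and release of RelB (the non-canonical pathway). OX40, GITR and 4-1BB are abundant on Treg cells, where these receptors and c-Rel are known to take part in Treg development and in the effector Treg program.

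The 4 libraries had nearly the same distribution of FPKM, with sums that differed by at most 0.0098%, so library depth is unknown and the counting error of a value cannot be given. *Setd2* itself stood at 38.2 and 27.4 FPKM in the controls against 26.3 and 36.3 in the KO pools. Gene-level FPKM thus did not separate the genotypes (log2 fold change −0.06, adjusted p = 0.927 by limma). By other methods the study reported loss of Setd2 protein in splenic KO Treg cells. It also reported a strong drop of the histone mark that Setd2 writes in splenic and LI KO Treg cells. The T cell genes *Cd3e*, *Cd3g* and *Cd4* lay between 131 and 647 FPKM, whereas *Foxp3*, the defining gene of Treg cells, was listed at only 2.62 to 5.61. Other Treg genes lay higher or lower in the KO pools. *Ctla4* was at 1593 and 1701 in the controls against 2160.0 and 2310.4 in the KO pools (limma, unadjusted p = 0.00491, adjusted p = 0.132). *Ikzf2* (Helios) was at 121 and 116 in the controls against 84.1 and 98.4 in the KO pools (unadjusted p = 0.0183, adjusted p = 0.222). *Il2ra* (CD25) was at 184 and 180.4 in the controls against 152 and 163 in the KO pools and was not called (unadjusted p = 0.0905, adjusted p = 0.392). The groups did not overlap for any of the 3, which also held for 47.1% of all tested genes. The part of these 3 genes in the members' values was not tested. Of 5 B cell markers 3 had a mean below 1, with *Ms4a1* and *Pax5* at most 0.63, while *Cd79b* was at 9.18 to 12.5 and *Cd79a* at 1.58 to 3.24. *Cd8a* reached at most 0.35, *Cd8b1* was at 2.08 to 2.96, and summed macrophage and monocyte markers 201 to 253, with *Lyz2* at 128 to 168. Of the plasma cell genes, *Igkc* was at 753 to 1171 and *Jchain* at 112 to 169, both with groups that overlapped, and *Sdc1* at 1.86 to 6.09. Control 2 listed 28426 genes at 0, compared with 33223 to 33957 in the other 3 libraries. Of 6 epithelial markers 5 had a mean below 1, and *Epcam* was at 28.7 and 30.8 in control and 19.6 and 21.1 in KO libraries. Of 5 stromal and endothelial markers 3 had a mean below 1, with *Cdh5* at or below 0.11. *Pecam1* was at 34.7 and 36.3 in control and 49.3 and 42.7 in KO libraries. *Dcn* was at 1.21 and 3.22 in control and 4.47 and 4.25 in KO libraries. The part of such cells in the members' values was not tested. In bulk cells, fewer cells of a type and less RNA per cell cannot be told apart.

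Most of the tested members were not called different between KO and control LI Treg cells. The ligand *Tnfsf8* (CD30L) fell to a KO mean of 0.514 of the control mean, and it was the 1 member with an adjusted p below 0.05 in limma, which called 0.275% of the 7639 tested genes lower and 0.314% higher. The study used a threshold of 0.05 on the unadjusted p. By it 7 members were lower in KO cells (*Tnfsf8*, *Tnfrsf9*, *Tnfrsf12a*, *Tnfrsf25*, *Tnfaip3*, *Tnfsf11* and *Rel*), or 14.3% of the 49, where 7.57% of all tested genes were. By the same threshold, 5 members were higher (*Cd40lg*, *Tnfrsf13b*, *Cd40*, *Tnfrsf26* and *Traf3*), or 10.2%, beside 8.61% of all tested genes. *Cd40* entered the test only through its KO mean, which favours that direction. Together these were 12 of 49 members, or 24.5%, beside 16.2% of tested genes. The median log2 fold change (of log2(FPKM + 1), KO minus control, as throughout) was −0.08 over the 49 members, with 22 above 0 and 27 below, and −0.0039 over all tested genes. The 2 groups of libraries did not overlap for 24 members (49.0%), 13 with KO above and 11 with KO below, and for 47.1% of all tested genes. These shares describe the list and were not tested against other genes. With 2 libraries a group, an exact two-sided permutation test cannot give a p below 0.333, so every p leans on the variance estimate that limma borrows from the other genes.

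**Figure D1:**
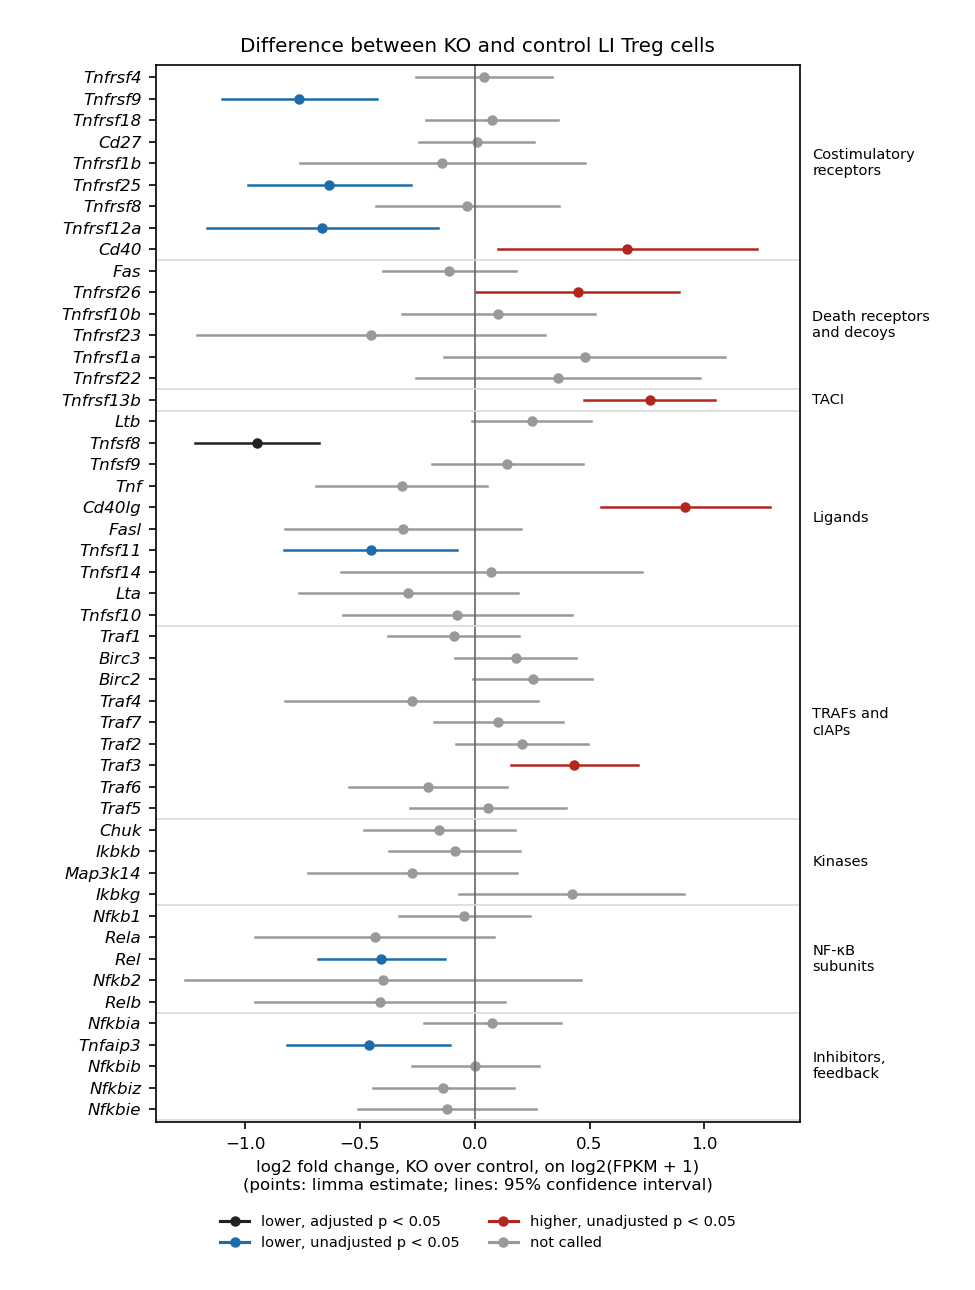
Log2 fold change of each of the 49 tested members (difference of log2(FPKM + 1), KO minus control, x axis) with its 95% confidence interval from limma, grouped by role. The black point is *Tnfsf8*, the 1 member with an adjusted p below 0.05. Blue and red points are the members with an unadjusted p below 0.05, and grey intervals, which include 0, belong to the members not called.

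The promoters of members that were called and of members that were not are printed here, since several of these genes are known to be NF-κB targets themselves. Each line holds 120 bases before to 50 bases after a RefSeq transcription start (GRCm38.p6), written 5′ to 3′ on the strand of the gene. *Tnfaip3* and *Tnfrsf9* had 2 starts each and *Nfkb2* had 3. For these genes a start with the most motif matches was picked for printing, and the other start of *Tnfrsf9* had 0 matches. Capitals mark matches to a κB-type motif, GGGNNNTTCC, on either strand. *Rel*, *Tnfaip3* and *Tnfrsf9* were lower in KO cells at an unadjusted p below 0.05, *Traf3* was higher, and *Nfkbia* and *Nfkb2* were not called. *Tnfsf8* and *Tnfrsf13b* are the members with the smallest p in each direction, and their windows hold no match.
Rel (chr11:23770920-23771089, minus strand): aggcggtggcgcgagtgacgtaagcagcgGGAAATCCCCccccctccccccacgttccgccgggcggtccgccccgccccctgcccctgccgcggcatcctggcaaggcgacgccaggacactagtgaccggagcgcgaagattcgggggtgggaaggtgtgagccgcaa
Tnfaip3 (chr10:19015361-19015530, minus strand): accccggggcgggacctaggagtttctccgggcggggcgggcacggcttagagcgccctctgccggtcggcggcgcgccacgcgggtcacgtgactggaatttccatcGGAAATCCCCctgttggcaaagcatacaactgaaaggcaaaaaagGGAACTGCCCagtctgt
Tnfrsf9 (chr4:150927879-150928048, plus strand): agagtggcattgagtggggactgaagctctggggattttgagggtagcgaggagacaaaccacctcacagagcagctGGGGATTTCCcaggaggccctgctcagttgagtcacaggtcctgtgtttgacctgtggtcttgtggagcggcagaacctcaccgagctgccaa
Traf3 (chr12:111166250-111166419, plus strand): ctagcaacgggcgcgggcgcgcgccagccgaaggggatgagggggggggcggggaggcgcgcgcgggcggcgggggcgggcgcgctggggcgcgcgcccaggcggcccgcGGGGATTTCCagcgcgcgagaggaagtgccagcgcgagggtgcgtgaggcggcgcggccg
Nfkbia (chr12:55492598-55492767, minus strand): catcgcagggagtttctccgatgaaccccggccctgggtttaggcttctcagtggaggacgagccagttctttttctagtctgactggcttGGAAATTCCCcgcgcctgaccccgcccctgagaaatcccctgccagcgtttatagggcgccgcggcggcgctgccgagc
Nfkb2 (chr19:46304617-46304786, plus strand): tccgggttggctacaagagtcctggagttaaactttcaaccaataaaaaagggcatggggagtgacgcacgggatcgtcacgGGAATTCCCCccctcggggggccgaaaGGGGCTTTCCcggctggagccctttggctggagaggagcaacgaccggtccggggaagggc
Tnfsf8 (chr4:63861235-63861404, minus strand): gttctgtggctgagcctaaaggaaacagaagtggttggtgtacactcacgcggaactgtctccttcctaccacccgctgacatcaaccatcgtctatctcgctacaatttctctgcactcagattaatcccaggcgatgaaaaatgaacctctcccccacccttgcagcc
Tnfrsf13b (chr11:61126635-61126804, plus strand): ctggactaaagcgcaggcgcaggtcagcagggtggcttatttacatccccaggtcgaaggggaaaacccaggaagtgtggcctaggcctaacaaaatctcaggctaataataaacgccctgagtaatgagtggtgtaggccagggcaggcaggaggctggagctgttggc

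Promoters of 300 bases (250 before to 50 after the start) were at hand for 39 of the 49 tested members, and 13 of them (33.3%) held the motif in at least 1 window. Of all tested genes with a promoter at hand, 467 of 6080 (7.68%) held it in at least 1 window. Of all genes with a RefSeq promoter 1704 of 27025 (6.31%) did. The 13 members were *Chuk*, *Ltb*, *Nfkb2*, *Nfkbia*, *Nfkbie*, *Rel*, *Tnfaip3*, *Tnfrsf25*, *Tnfrsf9*, *Traf2*, *Traf3*, *Traf5* and *Traf7*. The motif stood in 4 of the 7 members called lower, in 1 of the 2 members called higher that had a promoter, and in 8 of the 30 members not called. A match is a description of these letters and not evidence of a bound site. Promoters of *Cd40*, *Cd40lg*, *Ikbkb*, *Nfkb1*, *Nfkbiz*, *Relb*, *Tnfrsf10b*, *Tnfrsf22*, *Tnfrsf26* and *Tnfsf9* were not analysed here.

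Among the 19 ligand genes 10 were tested, of which 2 were lower (*Tnfsf8* and *Tnfsf11*) and 1 was higher (*Cd40lg*) in KO cells. *Tnfsf8* (ENSMUSG00000028362, chromosome 4, 63831308 to 63861347 on GRCm38, as all gene positions here) encodes CD30L, the ligand of CD30. Its FPKM was 112 and 106 in the controls against 57.8 and 54.2 in the KO pools. Both KO libraries lay far below either control library, and the 2 libraries of each group were close to each other. The difference had a log2 fold change of −0.95 (standard error 0.12) and an adjusted p of 0.0264 in limma. Over the alternative settings its adjusted p ran from 0.0233 to 0.319, and it was 0.175 without KO 1 and 0.240 without KO 2, while the log2 fold change stayed between −0.99 and −0.90 with any library left out. With a block for the replicate number its adjusted p was 0.0633.

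*Cd40lg* (ENSMUSG00000031132, chromosome X, 57212143 to 57224042) encodes CD40L, by which activated CD4 T cells license B cells and dendritic cells, and it had the highest log2 fold change of the tested members. Its FPKM was 24.5 and 19.5 in the controls against 44.4 and 40.0 in the KO pools, with both KO libraries above both control libraries. The log2 fold change was 0.92 (standard error 0.16) at an unadjusted p of 0.000545, or 0.0647 after adjustment. Over the alternative settings the adjusted p ran from 0.0418, without control 1, to 0.345, without KO 2. *Cd40lg* is on the X chromosome. Of 4 genes on the Y chromosome, *Ddx3y* was at 77.3 and 58.1 in the controls against 88.0 and 102 in the KO pools and *Kdm5d* at 4.32 and 1.80 in the controls against 5.31 and 7.24 in the KO pools, while *Eif2s3y* and *Uty* had groups that overlapped and log2 fold changes of 0.12 and 0.01. *Xist* was at 7.22 and 7.02 in the controls against 5.08 and 6.41 in the KO pools. The part of the sex of the pooled mice in the difference was not tested.

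*Tnfsf11* (chromosome 14, 78277445 to 78308043) encodes RANKL, which drives osteoclast and M cell differentiation. Its FPKM was 14.3 and 15.0 in the controls against 10.5 and 10.4 in the KO pools. The KO libraries were nearly equal and lay below both controls, with a log2 fold change of −0.45 (standard error 0.16, unadjusted p = 0.0245, adjusted p = 0.237). With any 1 library left out its unadjusted p was between 0.0538 and 0.0920.

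The ligand with the highest level was *Ltb*, which encodes lymphotoxin β, the membrane anchor of the lymphotoxin heterotrimer. Its FPKM was 378 and 375 in the controls against 475 and 421 in the KO pools. Both KO libraries were above both controls, but the log2 fold change of 0.25 had an unadjusted p of 0.0583. *Ltb*, *Tnf* and *Lta* lie side by side on chromosome 17, with gaps of 3.1 and 1.2 kb. *Tnf*, at 22.1 to 33.1 FPKM, and *Lta*, at 5.37 to 7.06, had log2 fold changes of −0.32 and −0.29 and unadjusted p-values of 0.0845 and 0.196. The remaining tested ligands *Tnfsf9* (4-1BBL), *Fasl*, *Tnfsf14* (LIGHT) and *Tnfsf10* (TRAIL) lay between 5.24 and 39.2 FPKM in any library, with log2 fold changes from −0.31 to 0.14 and none called. *Tnfsf4*, which encodes OX40L, had the highest mean of the untested members, at 3.61 in KO cells.

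Among the 11 costimulatory receptor genes 9 were tested. By the unadjusted threshold 3 (33.3%) were lower (*Tnfrsf9*, *Tnfrsf25* and *Tnfrsf12a*) and 1 (11.1%) was higher. The latter was *Cd40*, which entered the test only through its KO mean. Of all tested genes 7.57% were lower and 8.61% higher. *Tnfrsf9* (ENSMUSG00000028965, chromosome 4, 150914562 to 150946102) encodes 4-1BB, a receptor induced by activation and abundant on tissue Treg cells. Its FPKM was 2460.0 and 3121 in the controls against 1548 and 1719.8 in the KO pools. Both KO libraries were below both controls, and the difference between groups was larger than that between the control libraries. The log2 fold change was −0.76 (standard error 0.14), the unadjusted p 0.000967 and the adjusted p 0.0741. Over the alternative settings its adjusted p ran from 0.0142, without control 1, to 0.356, with no filter on low FPKM, and it was 0.0454 with a block for the replicate number. By mean FPKM it ranked 30 among all genes in control cells and 57 in KO cells.

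*Tnfrsf4* (OX40) and *Tnfrsf18* (GITR), the other 2 costimulatory receptors of very high level, were not called. *Tnfrsf4* (chromosome 4, 156013843 to 156016612) had an FPKM of 7085 and 6254 in the controls against 6607 and 7085 in the KO pools. The shared distribution gives libraries the same value wherever a gene has the same rank in them. It ranked 9 in control and 8 in KO cells, and its log2 fold change was 0.04 with a 95% confidence interval of −0.26 to 0.34. *Tnfrsf18*, which lies 9.6 kb downstream, had an FPKM of 1899 and 2218 in the controls against 2108 and 2218 in the KO pools and a log2 fold change of 0.08 (95% confidence interval −0.21 to 0.36). Of the summed FPKM of the 11 costimulatory receptor genes, *Tnfrsf9* made up 20.9% and 26.0% in the control libraries and 14.5% and 15.2% in the KO libraries. *Tnfrsf4* made up 60.1% and 52.0% in controls and 62.1% and 62.5% in KO libraries, so the order *Tnfrsf4* over *Tnfrsf9* over *Tnfrsf18* in controls became *Tnfrsf4* over *Tnfrsf18* over *Tnfrsf9* in both KO libraries.

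*Tnfrsf25* (chromosome 4, 152115934 to 152120119) encodes DR3, which on stimulation expands Treg cells. Its FPKM was 50.2 and 62.8 in the controls against 38.0 and 33.9 in the KO pools, with no overlap between the groups. Its log2 fold change of −0.63 (standard error 0.15) had an unadjusted p of 0.00374, or 0.119 after adjustment, and the unadjusted p stayed below 0.05 with any library left out. *Tnfrsf12a* (chromosome 17, 23675445 to 23677468), which encodes Fn14, the receptor of TWEAK, had an FPKM of 12.5 and 18.2 in the controls against 8.52 and 9.86 in the KO pools. The 2 control libraries lay further apart than control 1 and KO 2 did. Its log2 fold change was −0.66 (unadjusted p = 0.0165, adjusted p = 0.217), and its unadjusted p was 0.118 without control 2 and 0.0859 without KO 1.

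*Cd40* (chromosome 2, 165055627 to 165072948), the receptor of CD40L, which B cells, dendritic cells and macrophages are known to express, passed the minimum of 5 only through the KO group. Its FPKM was 3.13 and 2.87 in the controls against 5.86 and 4.85 in the KO pools, with a log2 fold change of 0.66 (unadjusted p = 0.027, adjusted p = 0.243), and its unadjusted p was 0.118 without KO 1, 0.0602 without control 1 and 0.0965 without control 2. The summed FPKM of 5 dendritic cell markers moved with it, at 2.00 and 2.12 in the control and 4.62 and 4.27 in the KO libraries. *Xcr1* made up most of that sum, *Clec9a* was at 0 in all 4 libraries, and 4 of the 5 markers had a mean below 1. Of the macrophage and monocyte markers, *Adgre1* (4.38 and 3.66 against 5.60 and 6.24) and *Cd14* (32.4 and 36.8 against 40.2 and 42.0) were also higher in both KO libraries, and the sum of the list was 219 and 203 in control and 201 and 253 in KO libraries. Summed B cell markers were at 12.6 and 14.1 in control and 12.1 and 16.2 in KO libraries. The part of other cells in the *Cd40* values was not tested.

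The other tested costimulatory receptors were not called. *Cd27*, the receptor of CD70, had an FPKM of 154 and 154 in the controls against 159 and 150.3 in the KO pools and a log2 fold change of 0.01, and its values were the closest together of the members above 100. *Tnfrsf1b* (TNFR2), through which TNF acts on Treg cells, had an FPKM of 105 and 169 in the controls against 151 and 96.8 in the KO pools, so that each group held a high and a low library. *Tnfrsf8* (CD30), the receptor of CD30L, lay between 14.1 and 17.6 with a log2 fold change of −0.03 (95% confidence interval −0.43 to 0.36).

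*Tnfrsf13b* (ENSMUSG00000010142, chromosome 11, 61126755 to 61149372) was the only tested member of the 4 receptors for BAFF, APRIL and lymphotoxin. It encodes TACI, the receptor of BAFF and APRIL best known from B cells. Its FPKM was 45.4 and 45.3 in the controls against 73.7 and 81.8 in the KO pools. The control libraries were nearly identical and both KO libraries lay well above them. The log2 fold change was 0.76 (standard error 0.12), the unadjusted p was 0.000343, and the adjusted p was 0.0545, which ranged from 0.0541 to 0.431 over the alternative settings. Of the B cell markers, *Ms4a1* was at 0.11 and 0.63 in control and 0.18 and 0.31 in KO libraries, *Pax5* was at or below 0.04, and *Cd79a* and *Cd79b* had groups that overlapped. Of the plasma cell markers, *Jchain* was at 119 and 160.3 in the controls against 112 and 169 in the KO pools and *Sdc1* at 1.86 and 3.50 in the controls against 6.09 and 3.20 in the KO pools. The part of such cells in the *Tnfrsf13b* values was not tested. *Tnfrsf13c*, which encodes the BAFF receptor, and *Tnfrsf17*, which encodes BCMA, had means below 1.

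Of 9 death receptor and decoy genes 6 were tested and 1 (16.7%) was called, *Tnfrsf26*. It was higher in KO cells, as were 8.61% of all tested genes. *Fas*, the receptor of Fas ligand, had the highest level at 128 and 109 in the controls against 107 and 112 in the KO pools, with a log2 fold change of −0.11. *Tnfrsf26*, grouped here with the decoy receptor genes, had an FPKM of 56.3 and 38.6 in the controls against 59.5 and 68.6 in the KO pools. Its log2 fold change was 0.45 (unadjusted p = 0.048, adjusted p = 0.303 by limma). Control 1 lay close to KO 1, and the unadjusted p was 0.297 without control 2, 0.0643 without KO 1 and 0.212 without KO 2. Its neighbours *Tnfrsf22*, 6.1 kb away, and *Tnfrsf23*, 16.1 kb further on, had log2 fold changes of 0.36 and −0.45 and were not called. Transcripts of *Tnfrsf22* and *Tnfrsf23* share 91.0% identity over 2174 bases, and an antisense transcript at up to 14.8 FPKM overlaps all 3, so the split of reads among them is uncertain. *Tnfrsf10b* and *Tnfrsf1a*, the receptors of TRAIL and TNF, lay between 4.16 and 16.5 FPKM and were not called.

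**Figure D2:**
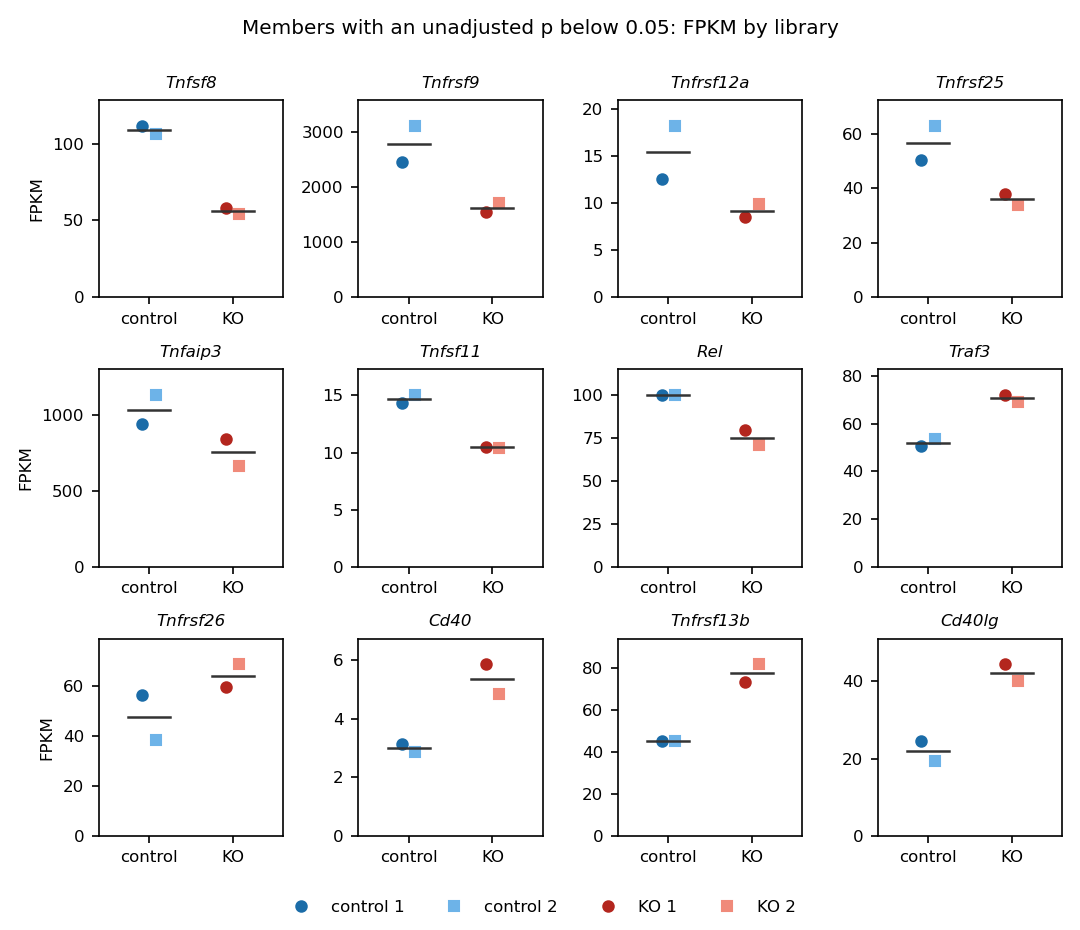
FPKM (y axis, from 0, a scale of its own in each panel) of the 12 members with an unadjusted p below 0.05, in order of log2 fold change. Each symbol is 1 library and each line the mean of 2 libraries. *Tnfsf8*, *Tnfrsf13b* and *Traf3* had groups far apart relative to the spread within them, and control 1 of *Tnfrsf26* lay close to KO 1.

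Several pairs of receptor and ligand could be read in the same cells. For CD30 and CD30L the ligand fell and the receptor gene *Tnfrsf8* was not called. For 4-1BB the receptor gene was lower at an unadjusted p below 0.05, and its ligand gene *Tnfsf9* was at 32.3 and 33.0 in the controls against 33.2 and 39.2 in the KO pools, with a log2 fold change of 0.14. *Gm11110*, at 5.87 and 5.83 in the controls against 11.6 and 11.9 in the KO pools, overlaps *Tnfsf9* on the other strand. For CD40 the ligand gene *Cd40lg* was higher at an unadjusted p below 0.05, and *Cd40* passed the filter only through its KO mean, so its difference adds nothing to the pair. The partners of OX40, GITR, CD27, DR3, Fn14, TACI and RANKL (*Tnfsf4*, *Tnfsf18*, *Cd70*, *Tnfsf15*, *Tnfsf12*, *Tnfsf13*, *Tnfsf13b* and *Tnfrsf11a*) were all under a mean of 5 in both groups.

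All 9 TRAF and cIAP genes were tested, and *Traf3* alone (11.1%) was called. It was higher in KO cells, as were 8.61% of all tested genes. TRAF3 keeps NIK at low levels together with TRAF2 and the cIAPs, and so restrains the non-canonical pathway. *Traf3* (chromosome 12, 111166370 to 111267153) had an FPKM of 50.6 and 53.5 in the controls against 72.0 and 69.2 in the KO pools, with both KO libraries above both controls. The log2 fold change was 0.43 (standard error 0.12, unadjusted p = 0.00715, adjusted p = 0.156), and the unadjusted p was 0.0557 without KO 1. Its partners lay above 0 as well without passing the test. *Traf2* was at 56.8 and 64.2 in the controls against 69.9 and 69.8 in the KO pools (log2 fold change 0.21, adjusted p = 0.455). *Birc2*, which encodes cIAP1, was at 129 and 142 in the controls against 161 and 162 in the KO pools (0.25, adjusted p = 0.319). *Birc3*, which encodes cIAP2 and lies 11.6 kb from it, was at 282 and 310.5 in the controls against 351 and 320.2 in the KO pools (0.18, adjusted p = 0.478). Of all 9 genes of this role, 5 had both KO libraries above both controls, 1 (*Traf6*) had both below, and 3 overlapped. Both KO libraries were above both controls for 24.2% of all tested genes.

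*Traf1*, which is induced by NF-κB and modulates TRAF2 complexes, had the highest level of the group at 534 and 598 in the controls against 570.5 and 493 in the KO pools, with a log2 fold change of −0.09. *Traf4* to *Traf7* ranged from 22.5 FPKM for *Traf5* in KO 1 to 121 for *Traf4* in control 2, and none was called. The longest *Traf5* transcript shares sequence with several other genes, at 86.65% identity over 1348 bases with *Gm45792*. The split of reads among them was not examined. The 4 kinase genes were not called either. *Chuk* (IKKα), the highest of them, was at 84.97 and 70.3 in the controls against 65.0 and 74.0 in the KO pools. Its longest transcript shares 90.9% identity over 1440 bases with *Gm17809*. *Ikbkb* (IKKβ) lay between 64.96 and 73.6 FPKM. *Map3k14* (NIK) was at 10.5 and 13.5 in the controls against 10.4 and 9.01 in the KO pools, with both KO libraries below both controls and a log2 fold change of −0.27. *Ikbkg* (NEMO), the regulatory subunit of the IKK complex, was at 8.92 and 13.3 in the controls against 15.0 and 14.9 in the KO pools, with a log2 fold change of 0.42 (adjusted p = 0.379). *G6pdx*, at 16.5 to 21.5 FPKM, overlaps *Ikbkg* on the other strand.

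The 5 NF-κB subunit genes had log2 fold changes below 0, with a median of −0.41, and of these only *Rel* was called. *Rel* (ENSMUSG00000020275, chromosome 11, 23736847 to 23770970) encodes c-Rel, the subunit needed for Treg differentiation. Its FPKM was 99.7 and 99.7 in the controls against 79.4 and 70.7 in the KO pools, so the control libraries were nearly equal and both KO libraries lower. This gave a log2 fold change of −0.41 (standard error 0.12, unadjusted p = 0.00991, adjusted p = 0.176), and the unadjusted p was 0.0906 without KO 2. *Nfkb1*, which encodes p105 and p50, had the highest level of the subunits at 312 and 274 in the controls against 266 and 302 in the KO pools, and its log2 fold change of −0.05 changed sign with a library left out. *Rela* was at 88.3 and 124 in the controls against 93.6 and 63.5 in the KO pools, *Relb* at 32.6 and 53.2 in the controls against 34.6 and 27.9 in the KO pools, and *Nfkb2*, which encodes p100 and p52, at 49.3 and 98.1 in the controls against 72.5 and 38.0 in the KO pools. For these 3 genes control 2 was the highest library and KO 2 the lowest, and the control libraries lay further apart than the group means did, with unadjusted p-values of 0.0876, 0.116 and 0.312. With any 1 library left out, the log2 fold changes ran from −0.71 to −0.16 for *Rela* and from −0.76 to −0.07 for *Relb*. For *Nfkb2* they ran from −0.89 to 0.09, so its sign also changed. *Psd*, at up to 21.0 FPKM, overlaps *Nfkb2* on the other strand, and the counting is not stated to use strand.

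*Tnfaip3* (ENSMUSG00000019850, chromosome 10, 19000910 to 19015657) encodes A20, the ubiquitin-editing enzyme that ends NF-κB signaling and is itself induced by it. Its FPKM was 936 and 1128 in the controls against 838 and 664 in the KO pools, and each KO library was below each control. A20 transcripts thus differed by −0.46 on the log2 scale (standard error 0.15, unadjusted p = 0.0175, adjusted p = 0.221), and the unadjusted p was 0.135 without KO 2 and 0.0569 without control 2. *Nfkbia*, which encodes IκBα and is the classical feedback target of NF-κB, ranked 13 of all genes in both groups. It had an FPKM of 4983 and 5596 in the controls against 5865 and 5282 in the KO pools and a log2 fold change of 0.08 (95% confidence interval −0.22 to 0.37). *Nfkbib* (IκBβ) was at 182 and 202 in the controls against 203 and 182 in the KO pools, *Nfkbiz* (IκBζ) at 145 and 167 in the controls against 154 and 131 in the KO pools, and *Nfkbie* (IκBε) between 44.5 and 60.3, with log2 fold changes of 0.00, −0.14 and −0.12. *Sirt2*, at 73.3 to 98.9 FPKM, overlaps *Nfkbib* on the other strand.

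A pattern that did not follow the genotype was shared by many genes at this step of the pathway. In 7 of the 10 subunit and inhibitor genes (*Rela*, *Nfkb2*, *Relb*, *Nfkbia*, *Nfkbib*, *Nfkbiz* and *Nfkbie*), control 2 and KO 1 were both above control 1 and KO 2, and 1 gene (*Nfkb1*) had the reverse order. Over the 49 members, 13 (26.5%) had the first order and 8 (16.3%) the reverse, beside 17.7% and 18.3% of all tested genes. *Nfkb2* had the widest range, from 0.69 above the mean of the 4 libraries in control 2 to 0.66 below it in KO 2 on the log2 scale. The titles give control 1 and KO 1, and control 2 and KO 2, the same numbers, and the order did not follow them. *Setd2* had the reverse order, with control 1 and KO 2 highest.

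**Figure D3:**
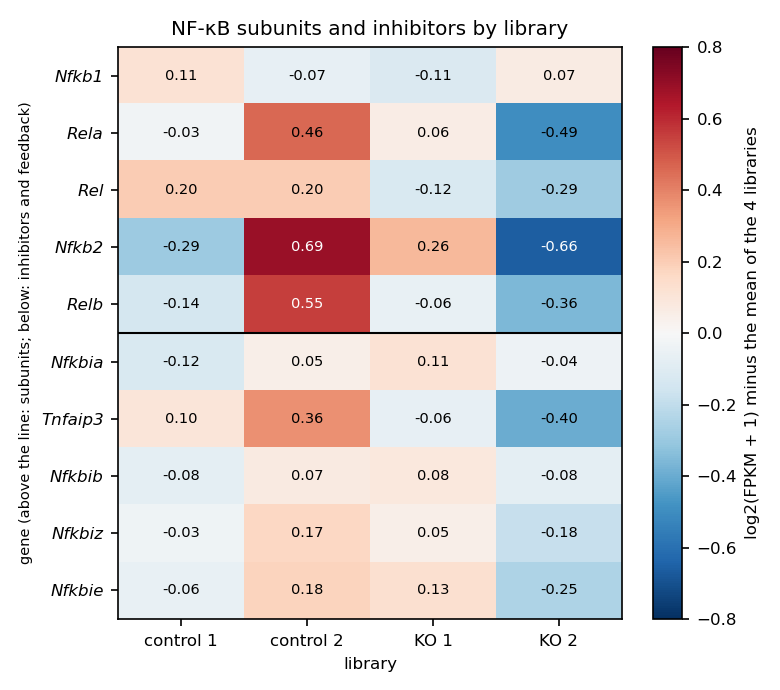
Each cell gives log2(FPKM + 1) of a gene in 1 library minus its mean over the 4 libraries, with red above and blue below the mean. Columns are libraries and rows are the 5 NF-κB subunits (above the line) and the 5 inhibitors and feedback genes (below it). *Rela*, *Nfkb2* and *Relb* were highest in control 2 and lowest in KO 2, and *Rel* and *Tnfaip3* were lower in both KO libraries than in both controls.

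Other genes of the pathway were read from 2 lists of genes outside the members. Of 39 adaptors, ubiquitin ligases and other regulators 32 were tested, of which 3 (9.38%) passed the unadjusted threshold upwards and 1 (3.12%) downwards, beside 8.61% and 7.57% of all tested genes, with a median log2 fold change of 0.09. The higher genes included *Traf3ip3*, a TRAF3-binding protein (log2 fold change 0.38), and *N4bp1*, an inhibitor of NF-κB (0.45). *Nfkbid*, which encodes IκBNS, a partner of c-Rel at *Foxp3*, was lower, with an FPKM of 49.9 and 56.7 in the controls against 45.5 and 35.2 in the KO pools and a log2 fold change of −0.40.

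Of 30 genes known as NF-κB targets 26 were tested. By the unadjusted threshold 8 were lower (30.8%) and 1 was higher (3.85%), beside 7.57% and 8.61% of all tested genes. The median log2 fold change was −0.15. Both lists were chosen with earlier results of these data known, and their shares were not tested against other genes. Targets that are members are not in this list, among them *Tnfaip3*, which was lower, and *Nfkbia* and *Traf1*, which were not called. With any library left out, 5 to 10 of the 26 were called lower and 1 to 2 higher. *Cd83*, a surface marker of activated lymphocytes and dendritic cells, had the largest difference, with an FPKM of 712 and 512 in the controls against 315 and 265 in the KO pools. Its log2 fold change was −1.06 (adjusted p = 0.0565). *Cxcl10*, a chemokine for CXCR3-bearing cells, was at 159 and 160.4 in the controls against 108 and 115 in the KO pools (−0.52). *Cd44*, the hyaluronan receptor of activated T cells, was at 94.1 and 100.5 in the controls against 63.7 and 70.8 in the KO pools (−0.53). *Gadd45b*, a stress-induced survival gene, was at 436 and 542 in the controls against 363 and 341 in the KO pools (−0.47). For these 4 genes, and for all 8 called lower, both KO libraries were below both controls. The same held for 22.9% of all tested genes. The other lower genes were the cyclin gene *Ccnd2* (−0.38), *Stat5a* (−0.45), and the Bcl-2 family genes *Bcl2a1b* and *Bcl2a1d* (−0.31 and −0.36), which are near-identical copies whose reads could be split in any proportion. *Ccl20*, the ligand of CCR6, was higher, with an FPKM of 147 and 145 in the controls against 192 and 233 in the KO pools and a log2 fold change of 0.53. No gene of the 2 lists had an adjusted p below 0.05 in limma.

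**Figure D4:**
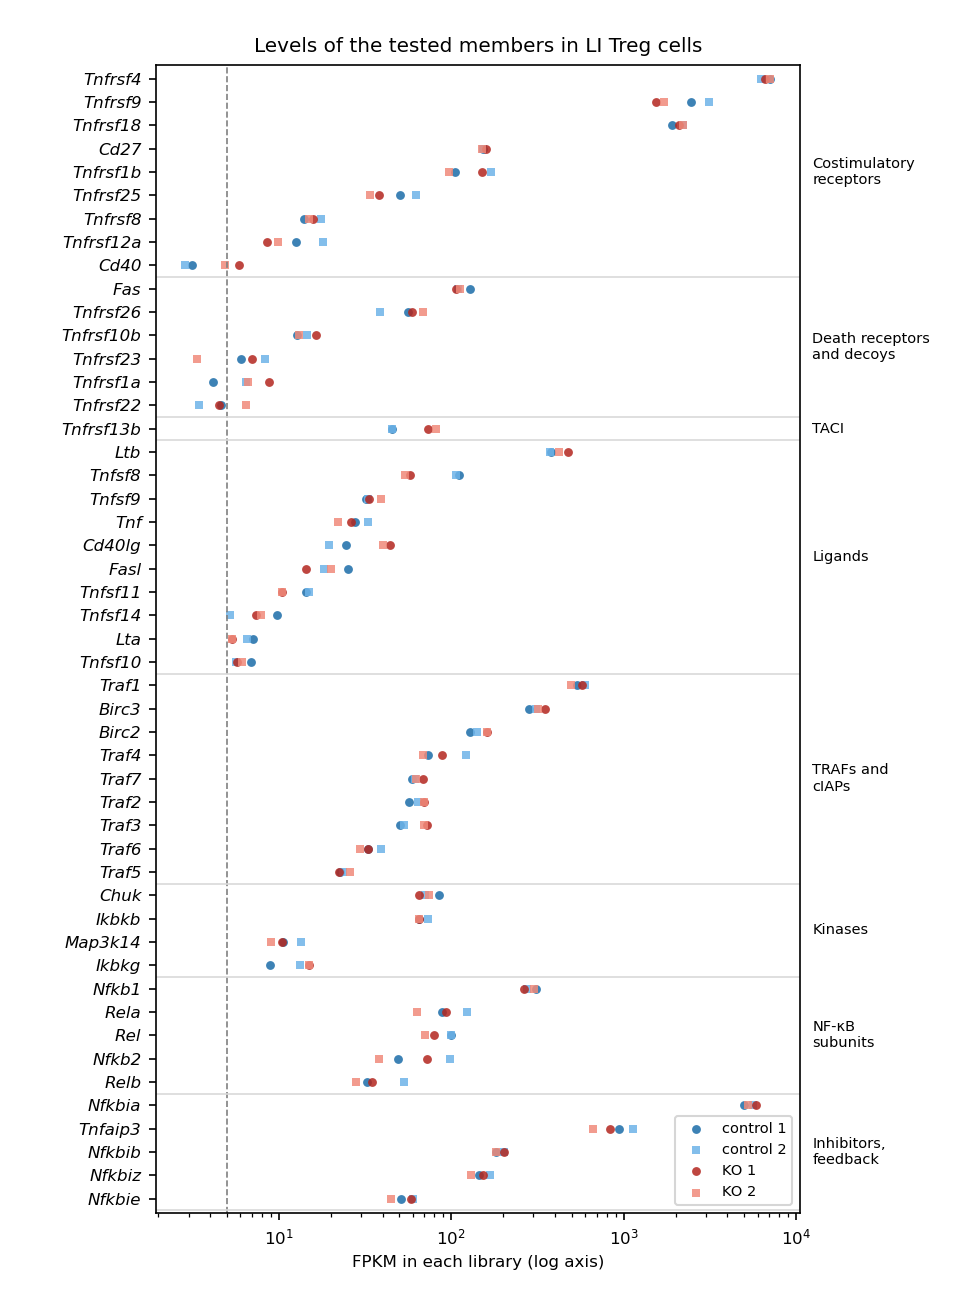
FPKM of the 49 tested members in each of the 4 libraries (x axis, log scale), grouped by role and ordered by the control mean, with the minimum of 5 as a dashed line. *Tnfrsf4*, *Nfkbia*, *Tnfrsf9* and *Tnfrsf18* lay at or above 1548 in every library, and *Cd40* and *Tnfrsf22* passed the minimum only through the KO mean.

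The levels of the 49 members spanned more than 3 orders of magnitude. The 4 highest were *Tnfrsf4*, *Nfkbia*, *Tnfrsf9* and *Tnfrsf18*, and 17 members had a mean of at least 100. *Cd40* (KO mean 5.36) and *Tnfrsf22* (KO mean 5.51) lay just above the minimum and *Tnfsf4* (3.61) was the nearest below it. No member passed only through the control mean. Of the 17 members under the minimum, *Tnfsf4* and *Tnfrsf14* (HVEM) had a mean of at least 1 in a group. The 15 others were *Tnfrsf11a*, *Tnfrsf11b*, *Tnfrsf13c*, *Tnfrsf17*, *Tnfrsf19*, *Tnfrsf21*, *Tnfsf12*, *Tnfsf13*, *Tnfsf13b*, *Tnfsf13os*, *Tnfsf15*, *Tnfsf18*, *Tnfsfm13*, *Cd70* and *Ltbr*, of which *Tnfrsf11b* and *Tnfsfm13* were listed at 0 in all 4 libraries.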

How the data were processed

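RNA-seq libraries of LI Treg cells from 2 control and 2 KO pools were analysed. Per the submitters' processing notes and the methods, the authors aligned reads to GRCm38 using STAR v2.5, used RSEM v1.2 for quantification, and deposited FPKM for 53379 genes. The deposited FPKM columns have nearly the same value at each of the 5000 highest ranks, though not the same number of genes at 0, and the sources used here name no step that does this, so depth is unknown and a count test could not be applied. Gene types and positions came from a GENCODE annotation of GRCm38, in which 53274 identifiers were found, and promoters from RefSeq (GRCm38.p6), which matched 51 of the 66 members.

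Protein-coding genes whose mean FPKM exceeded 5 in at least 1 group (7639) were fitted with limma 3.58.1 in R 4.3.3 on log2(FPKM + 1), KO against control, with no covariate and a trended empirical Bayes step. P-values were two-sided and adjusted over all 7639 genes by the Benjamini-Hochberg method. The fit was tested on simulated data. Adding 1 understates the fold changes of low genes. The members and lists were chosen with earlier results of these data known. Values by library are given for members with an unadjusted p below 0.05 or a mean of at least 100, and for the highest of each role. Other pathway genes are named at an unadjusted p below 0.05. The values of 2 genes of the lists are not reported here. *Tnfsf9*, *Ikbkg*, *Map3k14*, *Traf2*, *Relb* and *Nfkb2* were added after their values were seen. The submitters call each pool a biological replicate. Alternatives were the pseudocount (0.1 or 5), the filter (a mean of at least 1, or none), median-centred libraries, no trend, the replicate number as a block, and each library left out.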

Additional observations from a re-analysis of the deposited data

How the results depend on the processing

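Of the 49 members, 32 kept the sign of their log2 fold change under all 11 alternatives, and the 12 members called at an unadjusted p below 0.05 were among them. The 17 others turned only with 1 library left out, where the log2 fold changes ran from −0.03 to 0.05 for *Cd27*, from −0.22 to 0.00 for *Fas*, from −0.14 to 0.05 for *Nfkb1*, from −0.89 to 0.09 for *Nfkb2*, from −0.01 to 0.16 for *Nfkbia*, from −0.08 to 0.08 for *Nfkbib*, from −0.31 to 0.07 for *Nfkbie*, from −0.05 to 0.26 for *Tnfrsf10b*, from −0.04 to 0.19 for *Tnfrsf18*, from −0.48 to 0.20 for *Tnfrsf1b*, from −0.05 to 0.13 for *Tnfrsf4*, from −0.18 to 0.12 for *Tnfrsf8*, from −0.20 to 0.05 for *Tnfsf10*, from −0.32 to 0.47 for *Tnfsf14*, from −0.20 to 0.01 for *Traf1*, from −0.63 to 0.08 for *Traf4* and from −0.04 to 0.15 for *Traf5*. With 1 library left out, the lone library of a group is assumed to vary like the other group.

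Among the members, 2 to 6 were called higher and 4 to 11 lower at an unadjusted p with a library left out, and 0 to 1 higher and 0 to 2 lower at an adjusted p. The call of *Tnfsf8* was lost without KO 1 or KO 2. Without control 1, *Tnf*, *Traf4*, *Rela*, *Nfkb2* and *Relb* gained an unadjusted call, without control 2 *Tnfrsf1a*, *Fasl*, *Birc2* and *Ikbkg* did, and without KO 1 *Tnfrsf23* and *Rela*. Over all tested genes the counts with a library left out were 330 to 650 higher and 314 to 600 lower at an unadjusted p, and 1 to 36 and 1 to 30 at an adjusted p, beside 658, 578, 24 and 21 with all 4 libraries. With no filter on low FPKM, which adds genes to the test, 0 members and 0 genes in all passed an adjusted p, and 1170 genes in all were higher by the unadjusted threshold. Without a trend, 0 members, and 1 gene higher and 2 lower in all, passed an adjusted p. With a mean of at least 1, 11 genes were lower at an adjusted p.

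Libraries that share a number deviated from the means of their groups with a correlation of −0.305 across the tested genes. With 2 libraries a group, this value cannot show whether pools of the same number were paired. With the replicate block, 3 members were higher by unadjusted p, *Tnfrsf9* in place of *Tnfsf8* passed an adjusted p, and over all genes the counts were 419 higher and 377 lower by unadjusted p and 15 and 12 by adjusted p. With the crossed pairing, chosen after seeing the data, unadjusted p gave 9 members higher and 13 lower and adjusted p 3 and 6, with 1008, 983, 240 and 225 over all genes. The causes were not tested.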
